A study of Mus musculus with 2 samples.

Results

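The aminoacyl-tRNA synthetases were examined in thigh skeletal muscle of 26-month-old B6C3F1 mice, a hybrid laboratory strain. The members were a list of 36 enzymes, 20 named for the cytosolic set and 16, with symbols ending in 2, for the mitochondrial set. Values were taken for symbols that had a locus of their own in the deposited table, which gave 33 of the 36 enzymes (18 cytosolic and 15 mitochondrial) among 10543 genes. The other 3 lay in loci that the authors merged with a neighbouring gene and are given apart. Poly(A) RNA was sequenced, with 1 library for mice on a control diet and 1 for mice under calorie restriction (CR). The CR mice ate about 40% fewer calories for 25 months, on a diet enriched so that protein, vitamin and mineral intake per body weight stayed near that of the controls. No allele or transgene is given in the labels for either group, and the number of mice behind each library is not stated in them.

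With 1 library per diet no replicate check and no test is possible, and every comparison is a description of these 2 libraries. Values are FPKM, sequenced fragments per length of transcript relative to all mapped fragments, a unit meant for comparing levels between genes and between libraries. Here the sums are high for this unit, and over all genes the sum was 1.14 times higher under CR. Such comparisons are therefore approximate and hold within these 2 libraries alone. The depth of each library is unknown, so no counting interval is given. A log2 ratio compares CR with control as log2 of FPKM + 1, so that values below 0 mean a lower level in the CR library. A fold is the same ratio on the linear scale. In each pair of FPKM values control precedes CR. All 33 enzymes had a mean of at least 1 FPKM, the filter on low values, and none was listed at 0 in either library.

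Each synthetase joins 1 kind of amino acid to its tRNAs, the step that fixes the meaning of each codon. Nuclear genes encode both sets: the cytosolic enzymes serve the bulk of protein synthesis, and the mitochondrial enzymes are imported and charge the tRNAs that read the few proteins encoded by mitochondrial DNA. Several cytosolic enzymes are held with scaffold proteins in the multisynthetase complex. Many cytosolic synthetase genes are known targets of ATF4, the transcription factor raised when cells lack amino acids. Muscle, which holds a large share of the body's protein, draws on these enzymes to replace it.

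The tissue label was checked first. The fibre markers stood far above the synthetases, with median levels of 66572 and 92655 FPKM over 12 genes. Markers of fibre type and of other cells were counted by the 2-fold threshold, which 8.01% of all genes passed on the higher side and 10.7% on the lower. All 8 slow-twitch markers were higher under CR by 2-fold or more (14520 and 123831 FPKM summed), as were 9 of 12 white adipocyte markers (6584 and 22547 summed), 4 of 7 fibroblast markers (3265 and 5887), 2 of 7 leukocyte markers (540 and 743, with Cd14 listed at 0 in the control library), 1 of 7 endothelial markers (1839 and 2262) and 1 of 3 erythroid markers (18703 and 51220). Tendon markers were at least 2-fold lower in 4 of 6 (1913 and 999, with Tnc listed at 0 in the CR library). Of 3 satellite cell markers 1 was higher and 1 lower by that fold (562 and 322, with Vcam1 listed at 0 in the control library). The part of these differences in the synthetase values was not tested, and in a tissue sample fewer cells of a type and less RNA per cell cannot be told apart.

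Most synthetases stood slightly lower in the CR library, and few differed much. Of 33 enzymes, 26 had a ratio below 0 and 7 above it, except that Aars2 and Ears2 passed to above 0 when centred on the median gene and Farsb to below 0 with equal sums outside the 50 most abundant genes. Of all genes 52.1% were below 0. The median log2 ratio was -0.20 or 0.868-fold, beside -0.03 over the 10533 genes that passed the same filter. At least 2-fold lower were 2 of 33, Wars2 and Vars, where 10.7% of all genes were. At least 2-fold higher were 0 of 33, where 8.01% of all genes were. With a threshold of 1.5-fold, 4 were lower (18.8% of all genes) and 0 higher (16.4%). Among the 7886 genes whose mean reached 100 FPKM, the range of most synthetases, 5.29% were lower by 2-fold or more and 4.95% higher. By 1.5-fold or more, 13.5% of them were lower and 13.4% higher. The synthetases' share past each fold was below that of all genes in each direction. Their shares lower by 2-fold and by 1.5-fold were near those of the abundant genes. In all, 18 of 33 lay within 1.25-fold, a range that held 42.4% of all genes, a share not matched for level.

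**Figure D1:**
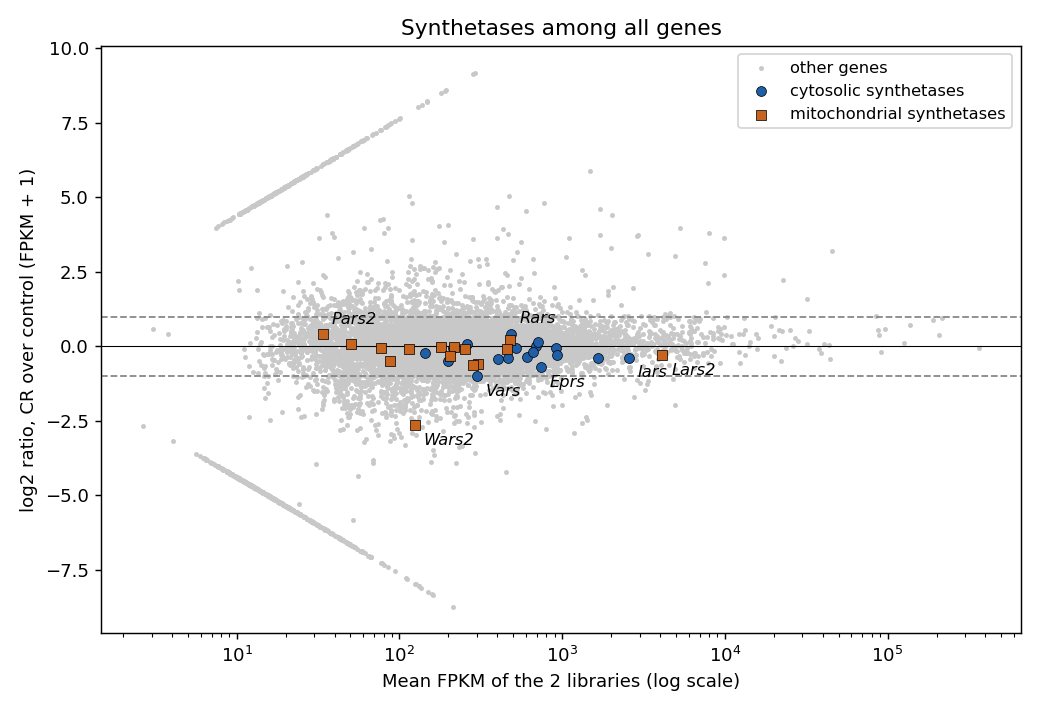
Log2 ratio of CR over control (FPKM + 1) against the mean FPKM of both libraries on a log axis, with every gene in grey, cytosolic synthetases as blue circles and mitochondrial synthetases as orange squares; dashed lines mark 2-fold. The grey diagonals are genes listed at 0 in a library; all synthetases but Wars2 and Vars lie between the dashed lines.

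The order of the enzymes was much the same in both libraries. Across the 33 genes Spearman's rho of FPKM between the libraries was 0.96, a description across genes that share both libraries. The 3 most abundant enzymes were the same in each, namely Lars2 (4551 and 3707 FPKM), Iars (2896 and 2225) and Kars (1887 and 1437). Wars2 moved from the 26th to the 33rd place, the last. Vars moved from the 17th to the 23rd. Rars moved the other way, from the 16th to the 10th. Neighbouring places cannot be ordered without replicates.

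**Figure D2:**
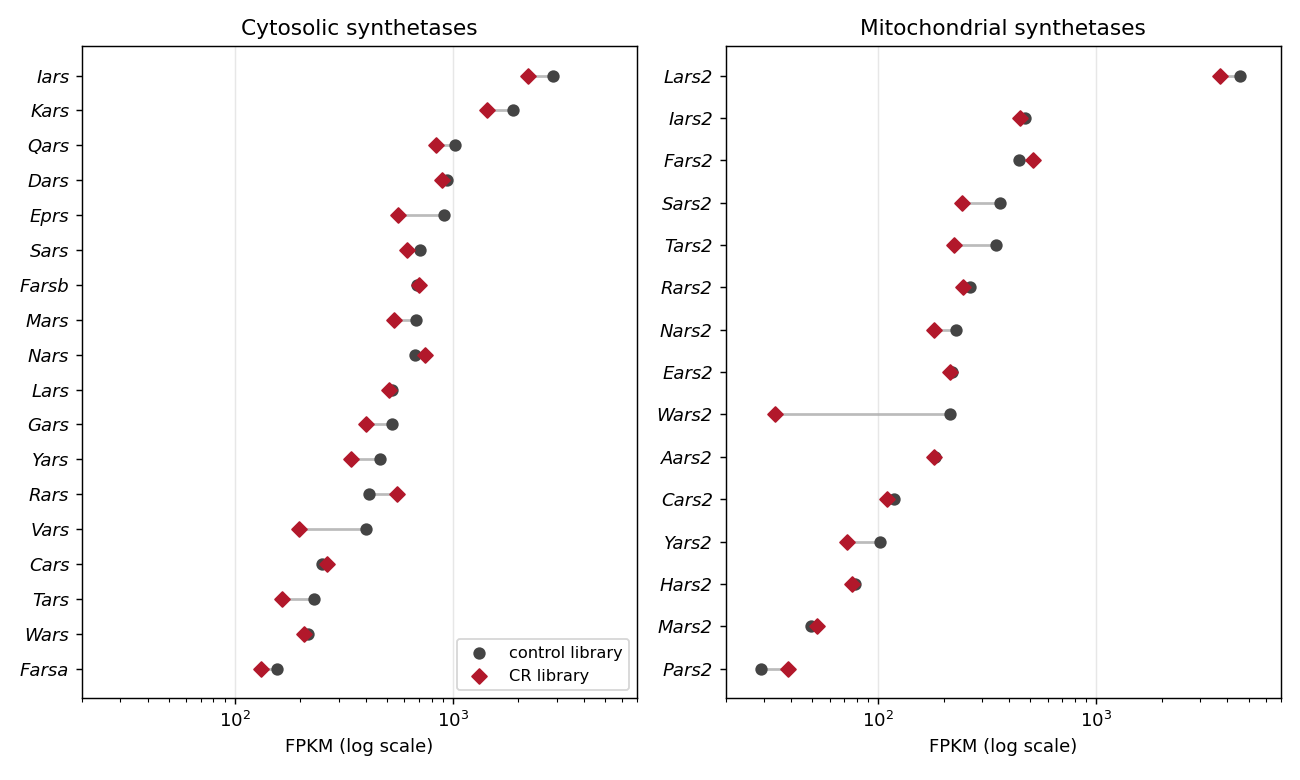
FPKM of each synthetase on a log axis in the control library (grey circles) and the CR library (red diamonds), with cytosolic enzymes on the left and mitochondrial enzymes on the right, sorted by the control value. Most pairs of points nearly overlap; Wars2 shows the widest gap, from 214 to 33.7 FPKM.

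The median log2 ratio of the cytosolic enzymes was -0.26, or 0.836-fold, and 14 of 18 were below 0 (Farsb too with equal sums). Summed, they reached 13599 FPKM under control and 11334 under CR. Only Vars passed 2-fold, and 9 of 18 lay within 1.25-fold. Vars, which charges valine tRNAs (mm9 chromosome 17, 35137851 to 35153274, plus strand), stood at 399 and 197 FPKM. It was 2.02-fold lower under CR, a log2 ratio of -1.01 that lies at the threshold: with a pseudocount of 5 FPKM, or centred on the median gene, it did not reach 2-fold. Among the 9844 genes that passed the filter and were above 0 in both libraries, 6.62% had a ratio as low as that of Vars. With genes listed at 0 kept, 1102 of 10533 did. The other branched-chain enzymes differed less. Iars, for isoleucine (chromosome 13, 49777499 to 49829636), had a log2 ratio of -0.38. Lars, for leucine, stood at 528 and 513 FPKM, a log2 ratio of -0.04.

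Of the 8 enzymes of the multisynthetase complex none passed 2-fold and 1, Eprs, was lower by 1.5-fold or more, as were 18.8% of all genes. The median log2 ratio of the 8 complex enzymes was -0.31, with 7 below 0, and they summed to 9283 and 7563 FPKM. The lowest was Eprs, a single protein that charges both glutamate and proline tRNAs (chromosome 1, 187186948 to 187252236, plus strand). It stood at 916 and 565 FPKM, a difference of 1.62-fold, and 12.7% of genes above 0 in both libraries had a ratio that low. With genes listed at 0 kept, 1705 of 10533 did. Kars, for lysine, followed at -0.39. Mars, for methionine, stood at 682 and 538 FPKM (-0.34) and Qars, for glutamine, at 1021 and 840 (-0.28). Dars, for aspartate, stood at 937 and 893 FPKM (-0.07).

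Rars, for arginine (chromosome 11, 35621883 to 35648030), was the exception among the complex enzymes, at 415 and 553 FPKM, a log2 ratio of 0.41 and the highest of all 33. The scaffold proteins Aimp1 (945 and 1118 FPKM), Aimp2 (1289 and 2096) and Eef1e1 (145 and 246) had log2 ratios of 0.24, 0.70 and 0.76. None of them reached 2-fold, and 2 of 3 passed 1.5-fold, where 16.4% of all genes did. Each of the 3 scaffold ratios was above those of the other 7 complex enzymes, and those of Aimp2 and Eef1e1 were also above that of Rars. The 10 measured cytosolic enzymes outside the complex had a median of -0.22, with 7 below 0.

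Outside the complex the cytosolic enzymes spread on both sides of 0. Tars, for threonine, stood at 232 and 165 FPKM (-0.49), and Yars, for tyrosine, at 465 and 342 (-0.44). Gars, for glycine, stood at 526 and 402 (-0.39). Gars and Kars each supply both compartments from 1 gene, and their ratios were alike at -0.39. Sars, for serine, stood at 709 and 615 FPKM (-0.20). Wars, for tryptophan and known to be induced by interferon gamma, stood at 217 and 207 (-0.06). Cars, for cysteine, stood at 252 and 266 (0.08) and Nars, for asparagine, at 674 and 744 (0.14). The phenylalanine enzyme is built of equal numbers of the subunits encoded by Farsa and Farsb. Farsa stood at 156 and 132 FPKM (-0.24) and Farsb at 687 and 699 (0.03), so Farsb was listed 4.40 times higher than Farsa under control and 5.28 times higher under CR.

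**Figure D3:**
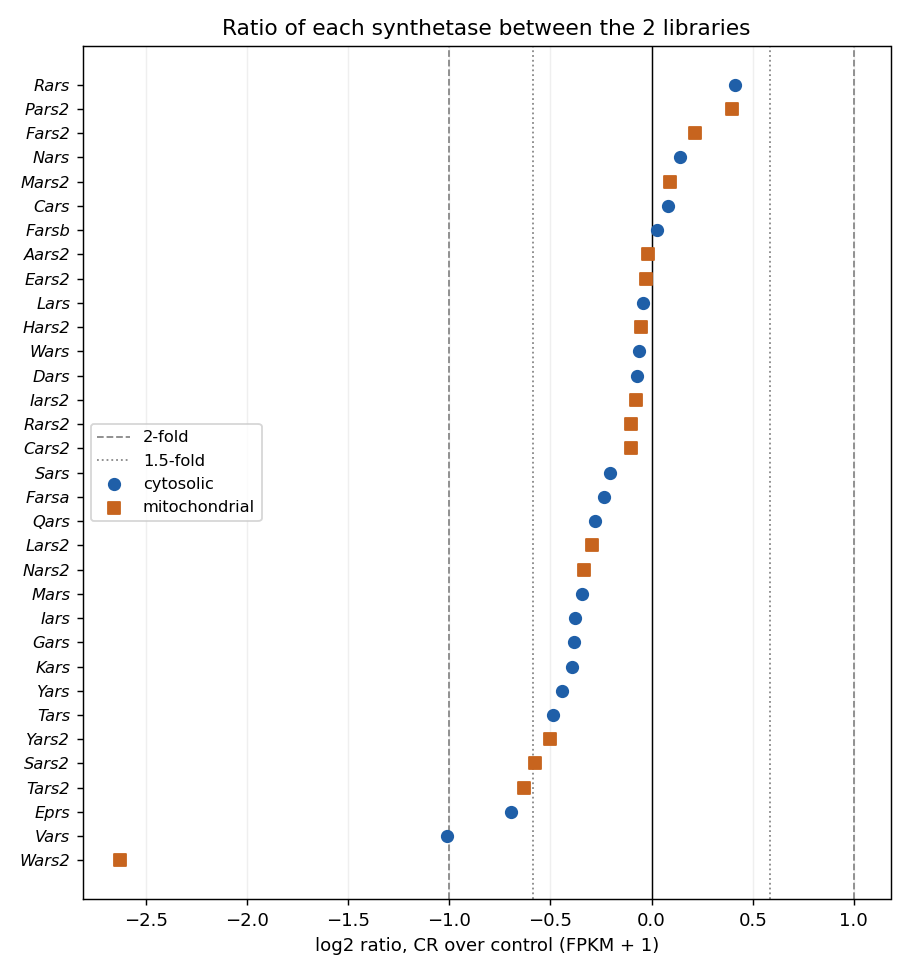
Log2 ratio of CR over control (FPKM + 1) for each of the 33 synthetases, sorted, with cytosolic enzymes as blue circles and mitochondrial enzymes as orange squares; dashed lines mark 2-fold and dotted lines 1.5-fold. Wars2 stands alone at -2.63, Vars touches the 2-fold line, and no enzyme lies beyond 1.5-fold on the higher side.

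The median log2 ratio of the mitochondrial enzymes was -0.10, or 0.933-fold, with 12 of 15 below 0 (without Aars2 and Ears2 when centred). Summed, they reached 7659 FPKM under control and 6337 under CR. Within 1.25-fold lay 9 of 15. The widest difference of any synthetase was that of Wars2, which charges the mitochondrial tryptophan tRNA (chromosome 3, 98945013 to 99024126, plus strand). It stood at 214 FPKM under control and 33.7 under CR, 6.19-fold lower, a log2 ratio of -2.63. Of the genes above 0 in both libraries 40 (0.406%) had a ratio that low. With genes listed at 0 kept, 490 of 10533 did. Without Wars2 the mitochondrial median was -0.09, and 0 of the other 14 passed 2-fold.

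After Wars2 came Tars2, for threonine, at 346 and 223 FPKM (-0.63), and Sars2, for serine, at 364 and 243 (-0.58). Yars2, for tyrosine, stood at 103 and 72.1 (-0.50), and Nars2, for asparagine, at 228 and 181 (-0.33). Lars2, for leucine (chromosome 9, 123276058 to 123371782), had a log2 ratio of -0.30. It alone made up 59.4% of the mitochondrial sum under control and 58.5% under CR. The 5 enzymes thus ranged from 1.55-fold lower for Tars2 to 1.23-fold lower for Lars2.

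A block of mitochondrial enzymes was nearly level between the libraries. Cars2 stood at 118 and 110 FPKM, Rars2 at 263 and 245, Iars2 at 471 and 446, Hars2 at 78.7 and 75.8, Ears2, for glutamate, at 218 and 214, and Aars2, for alanine, at 182 and 180.2. Their log2 ratios ran from -0.10 to -0.02. On the higher side were Mars2 (49.1 and 52.3 FPKM, 0.09), Fars2, for phenylalanine (443 and 516, 0.22), and Pars2, for proline (29.0 and 38.6, 0.40). Pars2 had the lowest level of all the enzymes in the control library. The locus on the plus strand of the mitochondrial genome itself, whose proteins these enzymes serve, stood at 57901 and 104224 FPKM. That on the minus strand stood at 41857.9 and 71608.5 FPKM. The reads carry no strand, so these are not separate measures.

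The cytosolic and mitochondrial sets differed little in their ratios. The cytosolic median was lower by 0.16 on the log2 scale, and 0.17 without Wars2. The cytosolic set includes Gars and Kars, which serve both compartments, and the contrast without them was not computed. The ratio of their summed levels was 1.78 under control and 1.79 under CR, and without Lars2 it was 4.38 and 4.31. The typical cytosolic enzyme was the more abundant, with a median level of 601 and 545 FPKM against 218 and 181. Sorted by catalytic fold instead, the 17 measured enzymes of class I had a median of -0.10 and the 15 of class II a median of -0.20, with Eprs, which holds a domain of each class, left out.

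Among the members 13 amino acids have a cytosolic and a mitochondrial enzyme of the same symbol stem, such as Lars and Lars2, and for 10 of them both enzymes were measured. The cytosolic enzyme was the more abundant in 8 of 10 pairs in each library, leucine and threonine being the exceptions. The cytosolic level of Lars was 0.116 of that of Lars2 under control and 0.138 under CR. For tryptophan the enzymes were at par in the control library (Wars over Wars2, 1.01), and Wars was 6.15 times Wars2 in the CR library. Mars was 13.9 and 10.3 times Mars2. In 8 of 10 pairs the mitochondrial enzyme had the lower ratio of CR over control, and the isoleucine and methionine pairs were the other way. In the 8, the cytosolic minus the mitochondrial log2 ratio ran from 0.06 for tyrosine to 2.57 for tryptophan. It was -0.30 for isoleucine and -0.43 for methionine. Without replicates the sign of a small gap is uncertain. The medians of the whole sets had the opposite order to most pairs. The pairs leave out 8 measured cytosolic and 5 measured mitochondrial enzymes, among them those for phenylalanine, glutamate and proline. There the mitochondrial enzyme had the higher ratio: Fars2 was at 0.22 beside -0.24 for Farsa and 0.03 for Farsb, and Ears2 (-0.03) and Pars2 (0.40) were above Eprs (-0.70).

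**Figure D4:**
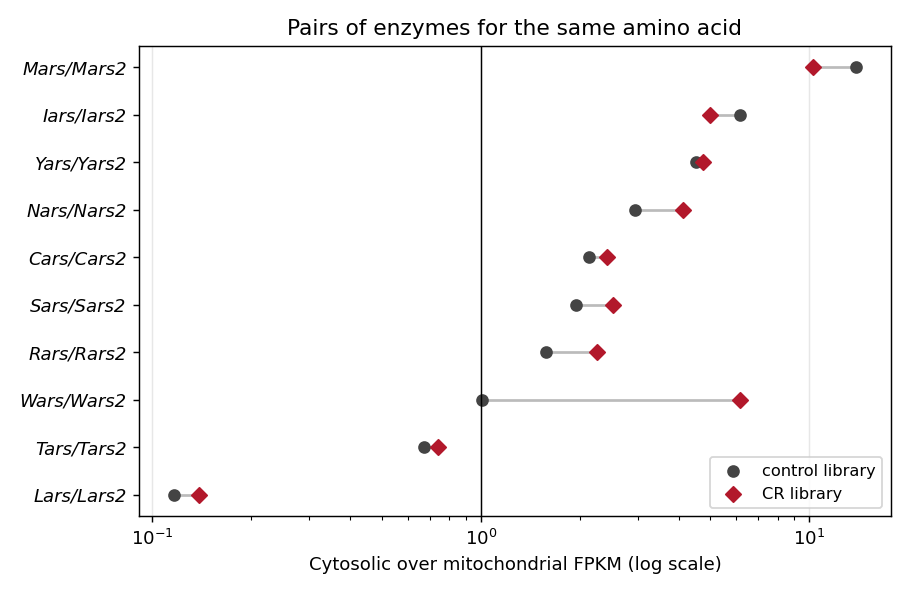
Cytosolic over mitochondrial FPKM for the 10 amino acids with both enzymes measured, on a log axis, in the control library (grey circles) and the CR library (red diamonds); the vertical line marks equal levels. Wars over Wars2 moves from 1.01 to 6.15, and Lars over Lars2 stays near 0.1.

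Of the merged loci, Aars shared a locus with Exosc6 on chromosome 8 at 706 and 586 FPKM (-0.27). Hars shared a locus with Dnd1 at 344 and 496 (0.53). Vars2 shared a locus with Gtf2h4 on chromosome 17 at 423 and 449.7 (0.09). Each value holds reads of both genes.

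Promoters were searched for motifs of factors known to act on synthetase or mitochondrial genes. RefSeq promoter windows (GRCm38.p6, 250 bases before to 50 after the start) were matched for 27 of 36 members, and not for Cars, Hars, Lars, Nars, Rars, Vars, Wars, Hars2 and Pars2. The composite element that ATF4 and its C/EBP partners bind was searched as TGATGNAA on both strands. It occurred in 5 of 13 matched cytosolic promoters and 0 of 14 matched mitochondrial ones, and in 4.51% of 27025 genes with windows of the same length. Stretches of 30 bases around a match are shown for each of these promoters, 5′ to 3′ on the gene's strand, with the match in capitals, to let the shared core and its place be compared.
Yars, chr4:129189895-129189924, plus strand: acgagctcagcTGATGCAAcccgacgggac
Gars, chr6:55037960-55037989, plus strand: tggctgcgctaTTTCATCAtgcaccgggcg
Iars, chr13:49682126-49682155, plus strand: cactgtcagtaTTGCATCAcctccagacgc
Tars, chr15:11399655-11399684, minus strand: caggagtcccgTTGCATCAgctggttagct
Aars, chr8:111033840-111033869, plus strand: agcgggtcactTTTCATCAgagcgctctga

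In Yars the match reads forward, and in the others it is the reverse complement. The matches began 30 bases before the annotated start in Gars and 15 before it in Tars, and at base 4 of the transcript in Yars, base 8 in Iars and base 10 in Aars. The measured enzymes with the element, Gars, Iars, Tars and Yars, had log2 ratios between -0.49 and -0.38 with a median of -0.41. The 8 measured cytosolic enzymes with a window and no match had a median of -0.26 and a range from -0.70 to 0.03, which holds all 4. A match is a run of letters and no measured binding.

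The other motifs were searched in the same way. The E-box CACGTG was found in 4 of 13 cytosolic promoters (Aars, Farsb, Iars and Tars) and 1 of 14 mitochondrial ones (Ears2), against 8.09% of all genes. The ETS core CCGGAAGT was found in Farsa, Mars and Rars2, against 4.31% of all genes. The site of NRF1, a regulator of nuclear genes for mitochondria (its palindromic consensus), was matched in 0 of 27, against 1.07%.

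The sensing arm that reads uncharged tRNA was measured within a wider list, which also holds other eIF2 kinases and stress response genes. GCN2, encoded by Eif2ak4, binds uncharged tRNA with the help of GCN1 and phosphorylates the initiation factor eIF2, which favours translation of Atf4. Of 14 measured sensors and factors 1 (Gcn1l1) was at least 2-fold lower and 1 (Eif2ak3) at least that much higher, where 10.7% and 8.01% of all genes were. Their median was 0.33, and -0.22 among those whose mean reached 100 FPKM. Gcn1l1, which encodes GCN1, stood at 1006 and 502 FPKM, at the 2-fold line, and Eif2ak4 at 212 and 117 (-0.85). Eif2ak3, the eIF2 kinase of the endoplasmic reticulum, stood at 27.2 and 72.0 (1.37), and the factor Atf5 at 271 and 533 (0.98). The eIF2 alpha subunit Eif2s1, the most abundant of them, stood at 1092 and 1619 (0.57). Atf4 itself, named after its value was seen, stood at 1127 and 966 (-0.22).

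Other known ATF4 targets went in both directions. Of 22 measured of 28 listed, 5 were at least 2-fold lower and 3 higher by that fold (10.7% and 8.01% of all genes), with a median log2 ratio of -0.35. Sesn2, a stress sensor that restrains mTORC1, stood at 79.5 and 18.6 FPKM (-2.04), and the leucine transporter Slc7a5 at 104 and 25.7 (-1.97). The glutamine transporter Slc1a5 stood at 257 and 987 (1.94) and the stress protein Nupr1 at 78.0 and 599 (2.93). Psat1, of serine synthesis, was listed at 0 and 125 FPKM, and Cth, which makes cysteine, at 41.5 and 0. A 0 in this table can be a failed estimate, since Ttn and Neb, which encode giant sarcomere proteins, are listed at 0 in both libraries. The most abundant, Vegfa, stood at 2692 and 2290 (-0.23).

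Of 6 partners that finish or use mitochondrial aminoacyl-tRNA, 1 was at least 2-fold lower and 0 higher (10.7% and 8.01% of all genes), with a median of -0.07. The lower gene was Mtfmt, which formylates the initiator methionyl-tRNA of mitochondria, at 173 and 44.3 FPKM, 3.84-fold lower under CR (-1.94). Tufm, the mitochondrial elongation factor that carries charged tRNA to the ribosome, stood at 1329 and 977 (-0.44). Mitochondria make glutaminyl-tRNA with an amidotransferase instead of a synthetase of their own. None of its 3 subunit genes passed 1.5-fold: Qrsl1 stood at 180.1 and 269 FPKM (0.58), Pet112l, the older symbol of Gatb, at 401 and 516 (0.36), and Gatc at 125 and 129 (0.04). Among 7 other synthetases and related genes 0 passed 2-fold, with a median of 0.08. The editing homolog Prorsd1 stood at 202 and 277 FPKM (0.46), Secisbp2 at 173 and 213 (0.30) and Pstk, the kinase of seryl-tRNA in selenocysteine synthesis, at 209 and 191 (-0.13).

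**Figure D5:**
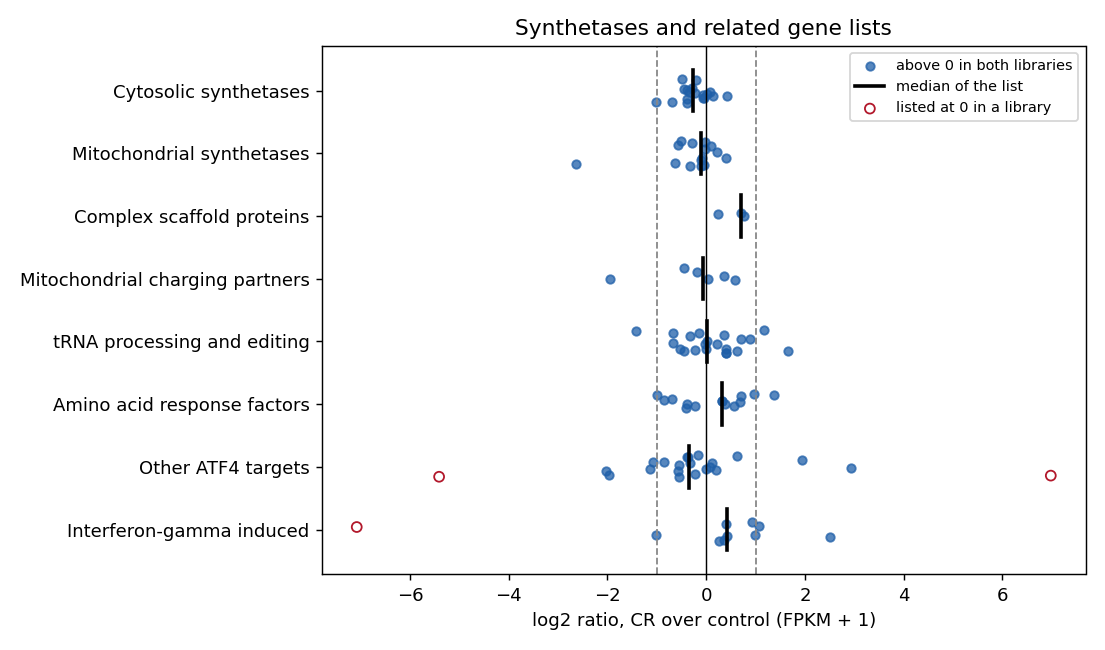
Log2 ratio of CR over control (FPKM + 1) of each measured gene in the synthetase sets and the related lists; points are genes, open red circles are genes listed at 0 in a library, black bars are list medians and dashed lines mark 2-fold. The synthetase points lie close together apart from Wars2, and the ATF4 targets run from Cth to Psat1 on both sides of 0.

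Reads of this kit carry no strand, and the table lists short unnamed loci on the strand opposite several synthetases. There were 72 above 0 in a library, within 10 of the 33 enzymes, and 54 were lower in the CR library and 18 higher, where 56.5% of 12098 unnamed loci above 0 in a library were lower. Eprs held 18 of them, from 102 to 389 bases long, with 16 lower and a median log2 ratio of -0.80, beside -0.70 for Eprs itself. Vars held 9, with 8 lower, 3 listed at 0 in the CR library and a median of -1.02, beside -1.01. Iars2 held 14, with 11 lower, 2 listed at 0 in the CR library and a median of -0.62, beside -0.08 for Iars2 itself. Rab3gap2, a named gene that overlaps Iars2 on the opposite strand, stood at 1065 and 744 FPKM. For Tars the sign differed: all 7 were higher, with a median of 0.69, beside -0.49 for Tars. These loci may hold reads of the enzyme's own transcript, so they are no independent measure of it. Iars shares 1656 bases at 96.0% identity with a processed pseudogene, Gm4849, and Cars 214 bases at 100% with Gm15580 on the opposite strand, so their values are uncertain. The loci of Mars and Ddit3 overlap on opposite strands by 1990 bases, those of Iars2 and Rab3gap2 by 360 and those of Hars2 and the locus holding Hars by 468, and reads there cannot be told apart. Across GENCODE transcripts 12 members share a near-identical stretch with another gene, so their values are uncertain too. At 100% on the opposite strand, Iars2 shares 2034 bases with Rab3gap2, Farsb 250 with Sgpp2 and Cars2 217 with Naxd. Nars2 shares 284 with C230038L03Rik, Fars2 115 with Lyrm4 and Ears2 89 with Ubfd1.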

How the data were processed

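Poly(A) RNA of thigh muscle was sequenced as 76 bp pairs, 1 library per diet, per the labels. TopHat 1.2.0, Cufflinks, Cuffdiff and mm9 are named in the submitters' processing notes, with no annotation or filter. The authors deposited FPKM for each locus, per the file headers. The lowest value is exactly 1, read from the values (no source states it) as an added 1 and subtracted. FPKM sums are high for this unit, so levels are compared within the table alone, and depth is unknown. Of 23672 loci, 10782 named a gene, and unnamed loci entered no gene value. Of the named loci, 234 naming several symbols were left out. Loci of a symbol were summed, which gave 10543 genes. Log2 ratios of FPKM + 1 were computed with no rescaling for genes whose mean reached 1 FPKM, using Python 3.11.15, numpy 2.4.6 and pandas 2.3.3 (plots: matplotlib 3.10.9), and tested on simulated data. The labels' diet set the groups. Promoters came from RefSeq (GRCm38.p6). Near-identical stretches (at least 76 bases at 95% identity) came from GENCODE M21 transcripts by blastn, and list symbols were matched also by RefSeq synonyms. Promoter orientation was checked: the last 20 bases of 24 of 28 windows occur in the gene's transcripts, and 0 reversed. The members and lists were chosen with earlier results of these data known. All members are named; of other lists, the most abundant gene, up to 4 with the largest ratios above 0 in both libraries, and any listed at 0. Atf4, Pop4, Pop5 and Rg9mtd1 were added after their values were seen. Alternatives were other pseudocounts, filters, scalings and treatments of loci. A gene and a promoter stretch are not reported here.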

Additional observations from a re-analysis of the deposited data

How the results depend on the processing

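The values were recomputed with pseudocounts of 0.1 and 5 FPKM, no filter and filters at a mean of 10 and 100 FPKM, centring on the median gene, equal sums outside the 50 most abundant genes, the largest locus of a symbol, genes listed at 0 left out, and merged loci added. A median was taken to have moved from 0.1 on the log2 scale, a count from 1.5 times. The count of synthetases at least 2-fold lower was 1 in place of 2 with a pseudocount of 5 FPKM and with centring, since Vars lies at the threshold. With that pseudocount the log2 ratio of Wars2 was -2.50 in place of -2.63. No other count, median or single ratio of the synthetases moved in these alternatives. With the filter at 100 FPKM, alternatives added after the values were seen, the median was 0.19 for other synthetases and related genes, -0.22 for amino acid response factors and 0.71 for interferon-gamma induced genes; that filter leaves fewer genes. Depth is unknown, and no library could be left out. No paired analysis was possible because each diet has 1 library.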

Other observations

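Genes that cut, modify and export tRNA lay on both sides of 0. Of 21 measured, 2 were higher under CR by 2-fold or more and 1 lower (8.01% and 10.7% of all genes), with a median log2 ratio of 0.02. Trnt1, which adds the CCA end to which amino acids are joined, stood at 352 and 1114 FPKM, 3.16-fold higher. Of the RNase P subunits, Rpp14 (231 and 520 FPKM, 1.17) and Rpp30 (201 and 374, 0.89) were also higher. Pop4 stood at 140 and 180 (0.36) and Pop5 at 306 and 300 (-0.03). Trit1, which modifies the base beside the anticodon, stood at 186 and 69.0, 2.67-fold lower. The most abundant, Hsd17b10, a subunit of mitochondrial RNase P, stood at 932 and 1434 (0.62). Rg9mtd1, the older symbol of Trmt10c and another subunit of that enzyme, stood at 214 and 135 (-0.67).

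Genes induced by interferon gamma, as Wars is, had a median of 0.41 over 10 measured. Of these 2 were at least 2-fold higher, Psmb9 (33.2 and 193 FPKM, 2.51) and B2m (1073 and 2237, 1.06), and 2 lower, Cd74 (191 and 94.3, -1.01) and Cxcl10, listed at 134 and 0. Of all genes 8.01% were higher and 10.7% lower by that fold. Irf1 stood at 73.6 and 148 (0.99). Wars stood at 217 and 207 FPKM beside them.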
